A study of Mus musculus with 2 samples.

Results

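The arterial genes outside the Notch pathway were *Unc5b*, *Epas1*, *Igfbp3*, *Bmx*, *Cxcr4* and *Cxcl12*. Their rows were taken by symbol from the count tables of yolk sac PK44 cells, and all 6 were found among 23154 genes. All 87 cells were used, 43 from the library called replicate 1 here and 44 from replicate 2. PK44 cells are endothelial cells sorted as CD41-CD43-CD45-CD31+CD201+Kit+CD44+, a gate for hemogenic endothelium with the capacity to form hematopoietic stem cells in the embryo proper. The paper reports this capacity for yolk sac PK44 cells too, after culture. They came from the yolk sac at embryonic day 10 (E10.0), from mice kept on a C57BL/6 background, with no genotype or treatment given beyond that. Cells of good morphology were picked by mouth pipette and sequenced by a modified single-cell tagged reverse transcription protocol (STRT-seq), which counts each captured transcript once by its molecular identifier at the poly(A) end. There was a single group, and no source used here says that the libraries came from separate embryos or litters. With the library as a block, each p-value below therefore measures only how a difference between classes of cells varied between these 2 libraries. The estimate of that spread also draws on the other genes.

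Arterial endothelium is set apart from venous endothelium by VEGF and Notch signaling, and a second set of genes marks it as well without being part of the Notch cascade. *Unc5b* encodes a netrin receptor of arterial and tip endothelial cells, *Epas1* the hypoxia-inducible transcription factor HIF-2alpha, *Igfbp3* a secreted protein that binds insulin-like growth factors, and *Bmx* a Tec-family tyrosine kinase found in arterial endothelium and endocardium. *Cxcr4* encodes a chemokine receptor and *Cxcl12* its ligand. Hemogenic endothelium of the embryo often carries arterial genes before it turns on *Runx1*, the transcription factor required for the endothelial-to-hematopoietic transition, and *Gja5* encodes connexin 40, a gap junction protein of arterial endothelium.

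On mm10 (GRCm38), *Unc5b* lies on chr10:60762593-60831581 (minus strand), *Epas1* on chr17:86753700-86833410 (plus), *Igfbp3* on chr11:7206086-7213923 (minus), *Bmx* on chrX:164192842-164258193 (minus), *Cxcr4* on chr1:128588199-128592293 (minus) and *Cxcl12* on chr6:117168535-117181367 (plus). No exon of these 6 genes overlapped an exon of another gene in GENCODE M21. Exons of *Gja5* overlapped those of *Gpr89* on the opposite strand, and those of *Runx1* an antisense gene, and whether counting used strand is not given in the sources used here, so reads of such partners cannot be told apart.

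RefSeq promoter sequences of build GRCm38.p6 matched 5 of the 6 members, with *Epas1* the one not matched. The promoters of 3 of them are printed, those of *Igfbp3*, *Bmx* and *Unc5b*, because their levels in the *Gja5* classes are described later and the windows differ in the letters they hold. Each line holds the 250 bases before the annotated start, read 5′ to 3′ on the strand of the gene, and capitals mark a match to the RUNX letters TGTGGT or the RBPJ letters TGGGAA (RBPJ being the DNA-binding partner of Notch). The windows were chr11:7213924-7214173 for *Igfbp3*, chrX:164258194-164258443 for *Bmx* and chr10:60831582-60831831 for *Unc5b*, all on the minus strand.
Igfbp3: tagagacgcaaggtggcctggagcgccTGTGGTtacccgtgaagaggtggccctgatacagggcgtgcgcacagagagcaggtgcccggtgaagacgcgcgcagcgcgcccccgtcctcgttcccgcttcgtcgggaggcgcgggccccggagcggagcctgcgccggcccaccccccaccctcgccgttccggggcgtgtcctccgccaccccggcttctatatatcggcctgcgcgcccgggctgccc
Bmx: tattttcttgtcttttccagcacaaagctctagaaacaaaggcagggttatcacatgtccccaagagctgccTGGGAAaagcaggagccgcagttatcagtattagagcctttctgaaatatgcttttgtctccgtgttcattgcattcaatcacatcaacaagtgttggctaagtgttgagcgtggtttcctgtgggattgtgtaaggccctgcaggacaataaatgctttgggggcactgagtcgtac
Unc5b: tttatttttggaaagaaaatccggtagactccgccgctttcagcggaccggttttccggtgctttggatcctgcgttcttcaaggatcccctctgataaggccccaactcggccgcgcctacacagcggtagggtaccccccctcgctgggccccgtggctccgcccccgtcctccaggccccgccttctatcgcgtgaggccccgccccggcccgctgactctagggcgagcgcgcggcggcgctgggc
The *Igfbp3* window held 1 RUNX match, starting at position -223 from the annotated start, and 73.2% G and C. The *Bmx* window held 1 RBPJ match at position -178 and 45.6% G and C, and the *Unc5b* window held none of the letters searched and 66.8% G and C. The *Cxcl12* window, not printed, held 1 RBPJ match at position -170, and the *Cxcr4* window held none. On both strands, the RUNX letters were present in 14.05%, the RBPJ letters in 21.59% and the hypoxia response letters ACGTG in 16.57% of 32851 promoter windows of this length. None of the 5 matched members held the last, and *Epas1* could not be searched. These matches describe letters in a window and say nothing of binding.

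The label PK44 was held against marker genes first. *Cdh5* (VE-cadherin) had a count in all 43 and all 44 cells, *Cldn5* in 41 and 44, 2 genes of endothelial junctions. Of 9 macrophage markers, 5 had a count in each library, with *Mrc1* in 29 and 42 cells, *Fcer1g* in 19 and 30 and *Lyz2* in 23 and 11, while *Adgre1*, *C1qa*, *C1qb* and *C1qc* had none. All 10 hematopoietic markers had a count in each library, among them *Itga2b*, which encodes the CD41 that the sort selected against, in 23 and 33 cells (at least 10 counts in 7 and 12). Total counts were 8932527 in replicate 1 (13218 to 702028 per cell, median 141577) and 12706360 in replicate 2 (51620 to 956593, median 238898). No cell barcode was shared between the libraries, and 86 of the 87 cells passed the limits on genes and transcripts stated in the methods. A set of 3 cells, 2 in replicate 1 and 1 in replicate 2, stood apart with at least 100 counts of each of *Col1a1*, *Col1a2*, *Col3a1* and *Lum*, genes of mesenchymal cells, and results that move without them are given both ways.

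*Epas1* had the highest level of the 6 genes, followed by *Igfbp3*, *Unc5b* and *Bmx*, while *Cxcl12* and *Cxcr4* were near the lowest values that could be counted. Levels are CPM, the counts of a gene in every 1000000 counts, taken over the summed counts of a library, and since each transcript was counted once at its end they were not divided by gene length. *Epas1* stood at 232 CPM in the first library and 299.5 CPM in the other (266 ± 47.5, SD, n = 2 libraries). *Igfbp3* stood at 161 and 173 CPM (167 ± 8.75), and *Unc5b* at 86.6 and 125.5 CPM (106 ± 27.5). *Bmx* was lower, at 55.2 and 30.1 CPM (42.6 ± 17.8). The values of these 4 genes did not overlap between neighbours in this order over the 2 libraries. *Cxcl12* stood at 2.80 and 3.46 CPM (3.13 ± 0.470) and *Cxcr4* at 0.560 and 4.96 CPM (2.76 ± 3.11), so that these last 2 overlapped. In thinned cells they did not, with *Cxcl12* at 13.1 and 7.95 CPM and *Cxcr4* at 1.19 and 5.68 CPM. Only 25 and 44 counts of *Cxcl12* and 5 and 63 counts of *Cxcr4* stood behind the values at full depth. In thinned cells a count remained in only 2 and 4 cells for *Cxcl12* and in 1 and 3 cells for *Cxcr4*. Among all genes ranked by mean level, *Epas1* was at place 618, *Igfbp3* at 1142, *Unc5b* at 1925, *Bmx* at 4602, *Cxcl12* at 10628 and *Cxcr4* at 10784. For reference, *Runx1* stood at 300.4 and 136.5 CPM and *Gja5* at 126 and 615 CPM, each differing more between the libraries than *Epas1*, *Igfbp3* or *Unc5b* did.

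**Figure D1:**
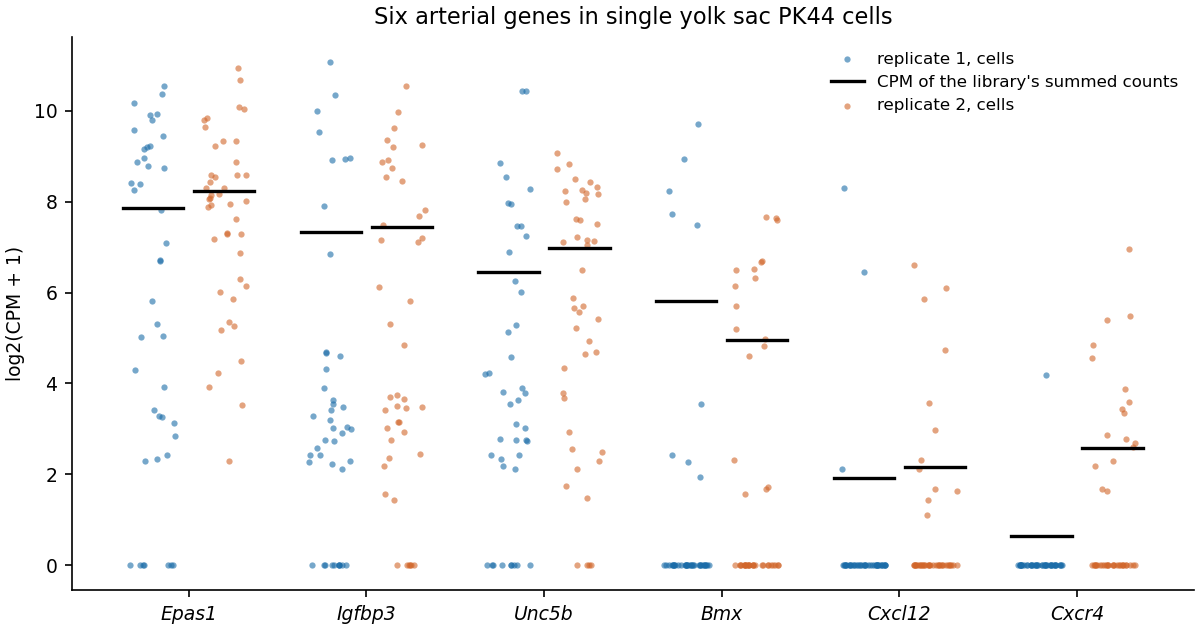
Level of each of the 6 genes in single cells, as log2(CPM + 1), with 1 point per cell (43 in replicate 1, blue; 44 in replicate 2, orange) and a bar at the CPM of the summed counts of the library. *Epas1* was spread over most cells, *Igfbp3* formed a low band of cells with few counts and a separate high group, and *Cxcl12* and *Cxcr4* were at 0 in most cells.

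The order by the number of cells differed from the order by level. At least 1 count of *Epas1* was found in 80 of 87 cells (92.0%, with an exact 95% interval of 84.1 to 96.7), *Unc5b* in 74 (85.1%, 75.8 to 91.8) and *Igfbp3* in 71 (81.6%, 71.9 to 89.1). *Bmx* had a count in 27 cells (31.0%, 21.5 to 41.9), *Cxcr4* in 18 (20.7%, 12.7 to 30.7) and *Cxcl12* in 15 (17.2%, 9.98 to 26.8), where these intervals cover counting error only. *Col1a1*, *Col1a2*, *Col3a1* and *Lum* held at least 87.2% of their counts in 1 to 7 cells of a library and still had 1 to 9 counts in 19 to 36 other cells. A count of 1 to 9 is therefore read here as weak evidence of expression, and the source of such counts was not tested. With at least 10 counts required, *Epas1* was present in 22 cells of replicate 1 and 37 of replicate 2, *Unc5b* in 11 and 23, *Igfbp3* in 8 and 19, and *Bmx* in 5 and 11. *Cxcl12* reached 10 counts in 2 cells of each library, and *Cxcr4* in 0 and 2 cells. After each cell was thinned to 20000 counts, which left 86 cells, a count remained in 75.6% of cells for *Epas1*, 50% for *Unc5b*, 40.7% for *Igfbp3*, 16.3% for *Bmx*, 6.98% for *Cxcl12* and 4.65% for *Cxcr4*.

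*Igfbp3* was the most unevenly spread of the 3 genes seen in most cells. In replicate 1, 25 cells held 1 to 9 counts of it with a median of 1, and in replicate 2, 19 cells with a median of 2, whereas the 8 and 19 cells with at least 10 counts held 96.5% and 98.0% of all its counts. The 3 highest cells alone held 74.1% of the *Igfbp3* counts in replicate 1 and 52.6% in replicate 2, against 45.6% and 25.2% for *Epas1* and 42.8% and 28.8% for *Unc5b*. Per cell, *Igfbp3* had a median of 7.12 CPM in replicate 1 and 12.2 in replicate 2, with highest values of 2160 and 1492. *Epas1* had medians of 102 and 260.4 CPM and highest values of 1500 and 1962. *Unc5b* had medians of 11.5 and 54.5 CPM and highest values of 1391 and 534. All 3 genes had cells at 0 in replicate 1, and *Epas1* had none in replicate 2. *Bmx* had a median of 0 in both libraries and reached 830 and 202 CPM.

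Most pairs of members had a correlation above 0 over cells. Over the 15 pairs of members, Spearman's rho of per-cell CPM was above 0 for 12 pairs in replicate 1 and for 15 in replicate 2, with medians of 0.19 and 0.21, and in thinned cells for 13 and 11 pairs, with medians of 0.25 and 0.24. These values describe cells of 1 library that share its depth range, and cells are not replicates, so no p-value is given. Pairs with *Cxcr4* or *Cxcl12* rested on few cells, as these genes had a count in 1 and 3 of the 43 cells of replicate 1. In replicate 2 they had a count in 17 and 12 of 44 cells. *Unc5b* and *Epas1* gave a rho of 0.49 and 0.35, *Unc5b* and *Igfbp3* 0.28 and 0.48, and *Igfbp3* and *Bmx* 0.29 and 0.41, in replicates 1 and 2. *Epas1* and *Igfbp3* gave -0.03 in replicate 1 and 0.37 in replicate 2, and in cells thinned to the same depth 0.33 and 0.39. The receptor *Cxcr4* and its ligand *Cxcl12* gave -0.04 and 0.04, and in these sparse counts no cell had 10 counts of both.

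**Figure D2:**
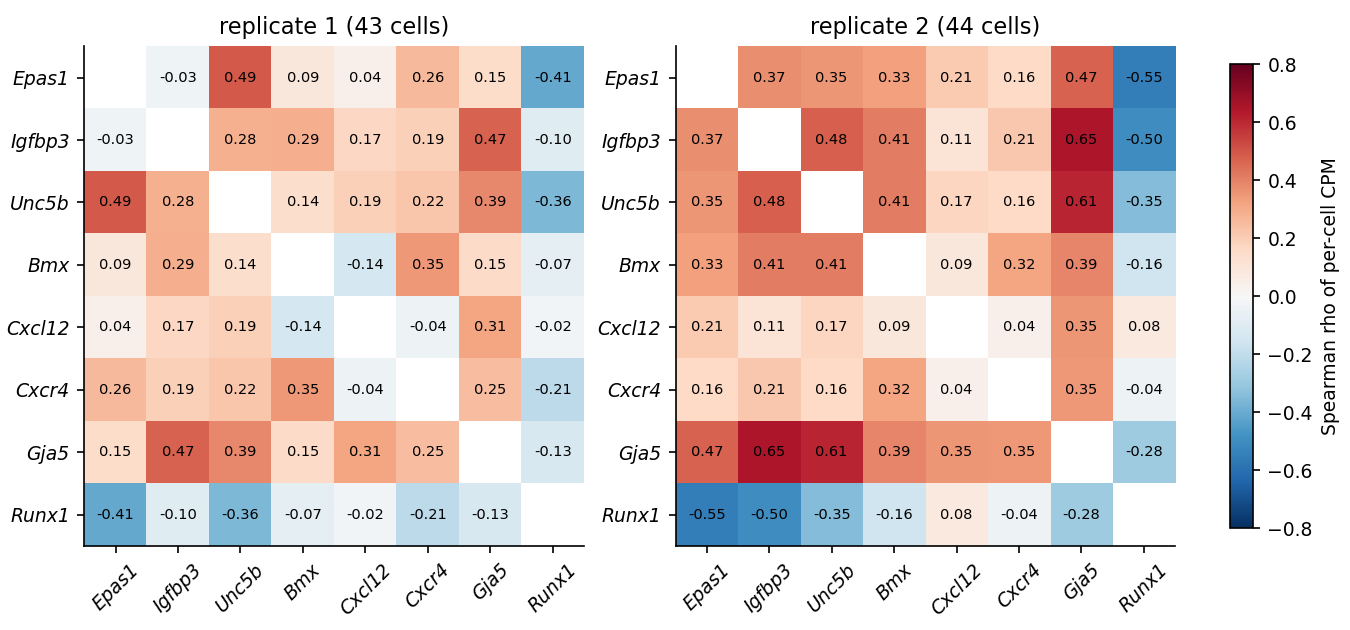
Spearman's rho of per-cell CPM for each pair among the 6 genes, *Gja5* and *Runx1*, in replicate 1 (43 cells, left) and replicate 2 (44 cells, right), with the colour scale running from -0.8 (blue) to 0.8 (red). All 6 genes had a rho above 0 with *Gja5* in both libraries, though *Cxcr4* had a count in only 1 cell of replicate 1. In thinned cells, not shown, the rho with *Gja5* was 0.12 and 0.13 for *Cxcl12* and 0.28 and 0.08 for *Cxcr4*. *Epas1* had the lowest rho with *Runx1*, at -0.41 and -0.55.

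Cells with at least 10 counts of a gene were counted as well. All 8 *Igfbp3* cells of replicate 1 also had 10 counts of *Epas1*, against 14 of the other 35 cells, and 18 of 19 did in replicate 2, against 19 of the other 25, although the rho of this pair over all cells of replicate 1 was near 0. Of the *Unc5b* cells, 9 of 11 and 22 of 23 had 10 counts of *Epas1*, against 13 of 32 and 15 of 21 other cells. Of the *Bmx* cells, 4 of 5 and 11 of 11 had them, against 18 of 38 and 26 of 33 other cells. In replicate 1, 18 cells had 10 counts of none of the 6 genes, 11 of one gene, 8 of 2, 3 of 3 and 3 of 4, and in replicate 2 these numbers were 6, 8, 14, 7 and 8, with 1 further cell at 5 genes. The cells with 4 members, 3 cells in replicate 1 and 8 in replicate 2, had a median *Gja5* level of 1205 and 1614 CPM, against 7.97 and 39.6 in the cells with none. Their median *Runx1* level was 0 and 5.68 CPM, against 248 and 163 in the cells with none. The cells with 3 members differed between the libraries, with medians of 25.6 CPM *Gja5* and 199.8 CPM *Runx1* over 3 cells of replicate 1 and 1013 and 2.93 CPM over 7 cells of replicate 2. The median depth of these cells was 291280 against 120960 counts in replicate 1, where depth moved with the number of genes, and 230499 against 234948 in replicate 2, where it did not.

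For each member, the 3 genes with the most similar pattern over cells were found among about 3660 genes with a count in at least 50% of the cells of each library, ranked by the lower rho of the 2 libraries. For *Unc5b* they were *Ece1* (endothelin-converting enzyme; 0.60 and 0.60), *Col4a1* (basement membrane collagen; 0.69 and 0.56) and *Tuba1a* (a tubulin; 0.56 and 0.57). For *Epas1* they were *Col4a1* (0.61 and 0.61), *Nrp1* (the VEGF and semaphorin co-receptor neuropilin-1; 0.60 and 0.65) and *Sparc* (a matrix protein; 0.59 and 0.57). For *Igfbp3* they were *Fstl1* (0.56 and 0.55), *Gja5* itself (0.47 and 0.65) and *Sparcl1* (0.47 and 0.75). The median rho over all these genes was -0.02 and -0.00 for *Unc5b*, -0.06 and -0.05 for *Epas1*, and -0.03 and -0.02 for *Igfbp3*. The closest genes to *Bmx* were *2900026A02Rik*, *St3gal1* and *Tgm2*, to *Cxcr4* *Bcr*, *Ptprm* and *Ehd4*, and to *Cxcl12* *Med11*, *Gja5* and *Tmed9*, none with a lower rho above 0.36, which in sparse counts is no finding.

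Cells were then split at the median *Runx1* level of their library, which was 52.2 CPM in replicate 1 but 10.03 CPM in replicate 2, which gave 21 and 22 *Runx1*-high and 22 and 22 *Runx1*-low cells. Counts were summed per library and class, and the 4 sums were tested with edgeR's quasi-likelihood test with the library as a block and Benjamini-Hochberg adjustment over 10629 genes. All 6 members were lower in *Runx1*-high cells in both libraries, as were 25.5% of all genes tested. *Epas1* alone among the 6 passed the test, against 1.56% of all genes (0.376% higher and 1.19% lower). The median change over all genes was 0.07 on the log2 scale.

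*Epas1* was at 102 CPM in *Runx1*-high and 470 CPM in *Runx1*-low cells of replicate 1, and at 174 and 487 CPM in replicate 2. Both *Runx1*-high sums lay below both *Runx1*-low sums, and the share of all genes with this pattern was not counted. The change was -1.88 on the log2 scale (SE 0.37, 3.68-fold lower, edgeR adjusted p = 0.000153, lower in 2 of 2 libraries). Single cells overlapped between the classes, from 0 to 1155 CPM (median 18.5) against 0 to 1500 (median 433) in replicate 1, and from 3.93 to 650 (median 151) against 56.9 to 1962 (median 299.7) in replicate 2. Across cells, *Epas1* and *Runx1* gave a rho of -0.41 and -0.55, and -0.37 and -0.53 in thinned cells.

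The other members also had lower levels in *Runx1*-high cells, without passing the test. *Unc5b* was at 50.2 against 153 CPM in replicate 1 and 71.5 against 206 CPM in replicate 2, a change of -1.60 (SE 0.51, adjusted p = 0.0861). *Igfbp3* was at 114 against 245.5 and 114 against 261 CPM (-1.18, SE 0.43, adjusted p = 0.188). A single cell held 562 of the 657 *Igfbp3* counts of the *Runx1*-high class in replicate 1, and another 755 of 870 in replicate 2. Without the highest cell of each class, a value chosen after seeing the data, *Igfbp3* was at 17.3 against 163 CPM in replicate 1 and 17.3 against 240.4 CPM in replicate 2. *Bmx* was at 26.04 against 108 and 11.4 against 57.8 CPM (-2.23, SE 0.87, adjusted p = 0.254), with 146 of the 150 counts of its *Runx1*-high class in replicate 1 in 1 cell. For these 3 genes too, both *Runx1*-high sums lay below both *Runx1*-low sums, a pattern whose share over all genes was not counted. *Cxcr4* had 0 counts in *Runx1*-high cells of replicate 1, which allows up to 0.521 CPM, against 5 in *Runx1*-low cells, and 24 against 39 in replicate 2 (adjusted p = 0.998), where the mean over cells went the other way, at 8.34 against 6.93 CPM. *Cxcl12* had 15 against 10 counts in replicate 1, where the deeper *Runx1*-high class was lower in CPM, and 13 against 31 in replicate 2 (adjusted p = 1.00).

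**Figure D3:**
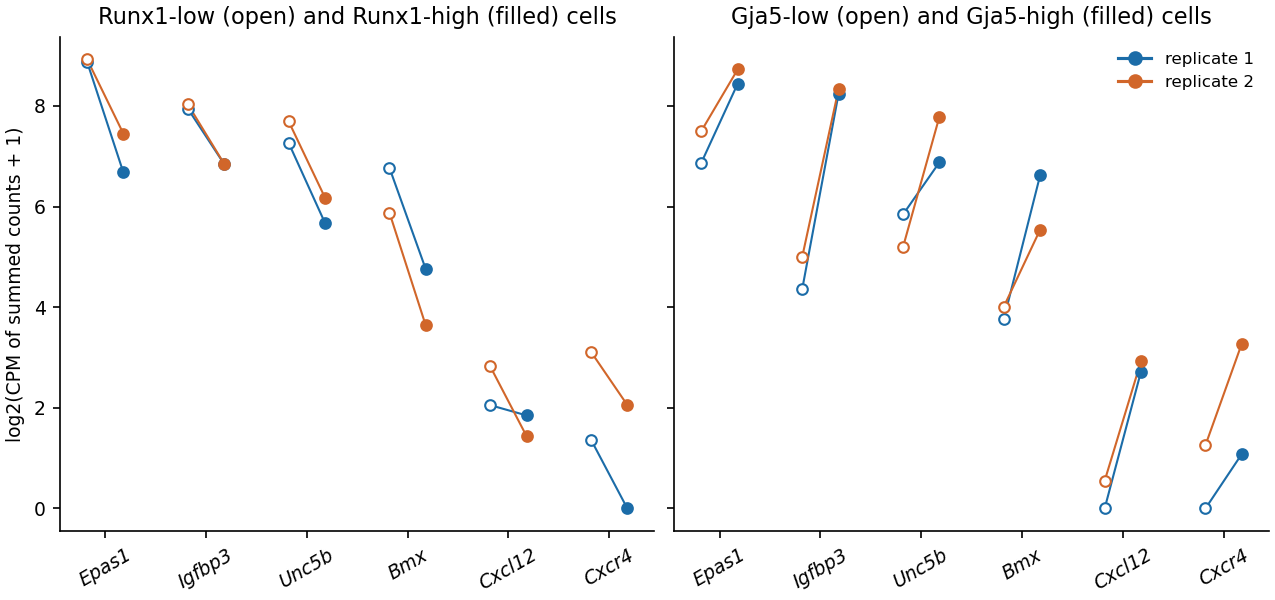
CPM of the summed counts of each gene, as log2(CPM + 1), in cells low (open points) and high (filled points) for *Runx1* (left) and *Gja5* (right), with lines joining the 2 classes of a library (replicate 1 blue, replicate 2 orange). Every line falls from *Runx1*-low to *Runx1*-high and rises from *Gja5*-low to *Gja5*-high, and *Epas1* on the left and *Igfbp3* and *Epas1* on the right passed the test.

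Other values moved with the *Runx1* classes. *Runx1*-high cells were deeper in replicate 1 (median 260240 against 95376 counts) and in replicate 2 (271734 against 213444). *Gja5* was itself lower in them, at 36.6 against 289 and 187 against 1252 CPM (-2.89, SE 0.35, adjusted p = 5.07e-13). The 3 collagen-rich cells were all *Runx1*-low. All 8 mesenchymal markers tested were lower in *Runx1*-high cells, and 5 of these passed. The summed level per cell of the 10 listed markers reached at most 302 CPM in *Runx1*-high against 23553 in *Runx1*-low cells of replicate 1. In replicate 2 it reached at most 119 against 20850 CPM. Without those 3 cells the *Epas1* change was -2.10 (adjusted p = 7.29e-05). Of 10 hematopoietic markers 8 were higher (median 2.19), of which 2 passed, *Coro1a* (3.49) and *Ikzf1* (2.98), and all 9 pan-endothelial markers were lower (median -0.80), of which 4 passed, with *Kdr* at -1.61 and *Cdh5* at -1.20. Of 4 macrophage markers tested 3 were higher (median 1.35) without passing, and *Mrc1*, the 1 that was lower, passed at -1.74. None of 3 erythroid or 4 visceral endoderm markers tested passed. The part of the marker genes in the member values was not tested. With *Runx1* and *Gja5* class together in a fit of 8 sums, chosen after seeing the data, the *Epas1* change with *Runx1* was -1.51 (adjusted p = 0.0797), and without the library block it was -1.83 (adjusted p = 0.673).

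The split at the median *Gja5* level, which was 10.01 CPM in replicate 1 but 147 CPM in replicate 2, gave 21 and 22 *Gja5*-high and 22 and 22 *Gja5*-low cells of similar depth (medians 161402 and 140016 counts in replicate 1, 230499 and 246822 in replicate 2). In replicate 1, 11 of the *Gja5*-high cells held only 1 to 9 counts of *Gja5*, and in replicate 2, 14 of the *Gja5*-low cells held at least 10. Of the 6 members, 5 passed the low-count filter. Of these, 2 passed the test, *Igfbp3* and *Epas1*, both higher in *Gja5*-high cells, against 0.882% of 10653 genes tested (0.798% higher and 0.0845% lower). All 6 members were higher in CPM of the sums in *Gja5*-high cells in both libraries, as were 27.1% of all genes tested.

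*Igfbp3* was at 301 CPM in *Gja5*-high and 19.6 CPM in *Gja5*-low cells of replicate 1, and at 321 and 31.0 CPM in replicate 2. The change was 3.64 on the log2 scale (SE 0.41, 12.4-fold higher, edgeR adjusted p = 2.03e-06, higher in 2 of 2 libraries), and it ranked sixth by p among all genes tested. Its median per cell was 13.9 against 5.35 CPM in replicate 1 and 192 against 6.90 CPM in replicate 2. In replicate 1 the difference between sums therefore rested on fewer cells, and *Igfbp3* cells with 10 counts had 10 counts of *Gja5* in 6 of 8 cases, against 4 of the other 35 cells. In replicate 2 they did in 18 of 19, against 18 of the other 25. With *Runx1* the same count went the other way, at 2 of 8 against 20 of 35 and 1 of 19 against 16 of 25. The rho of *Igfbp3* with *Gja5* was 0.47 and 0.65, and 0.59 and 0.60 in thinned cells.

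**Figure D4:**
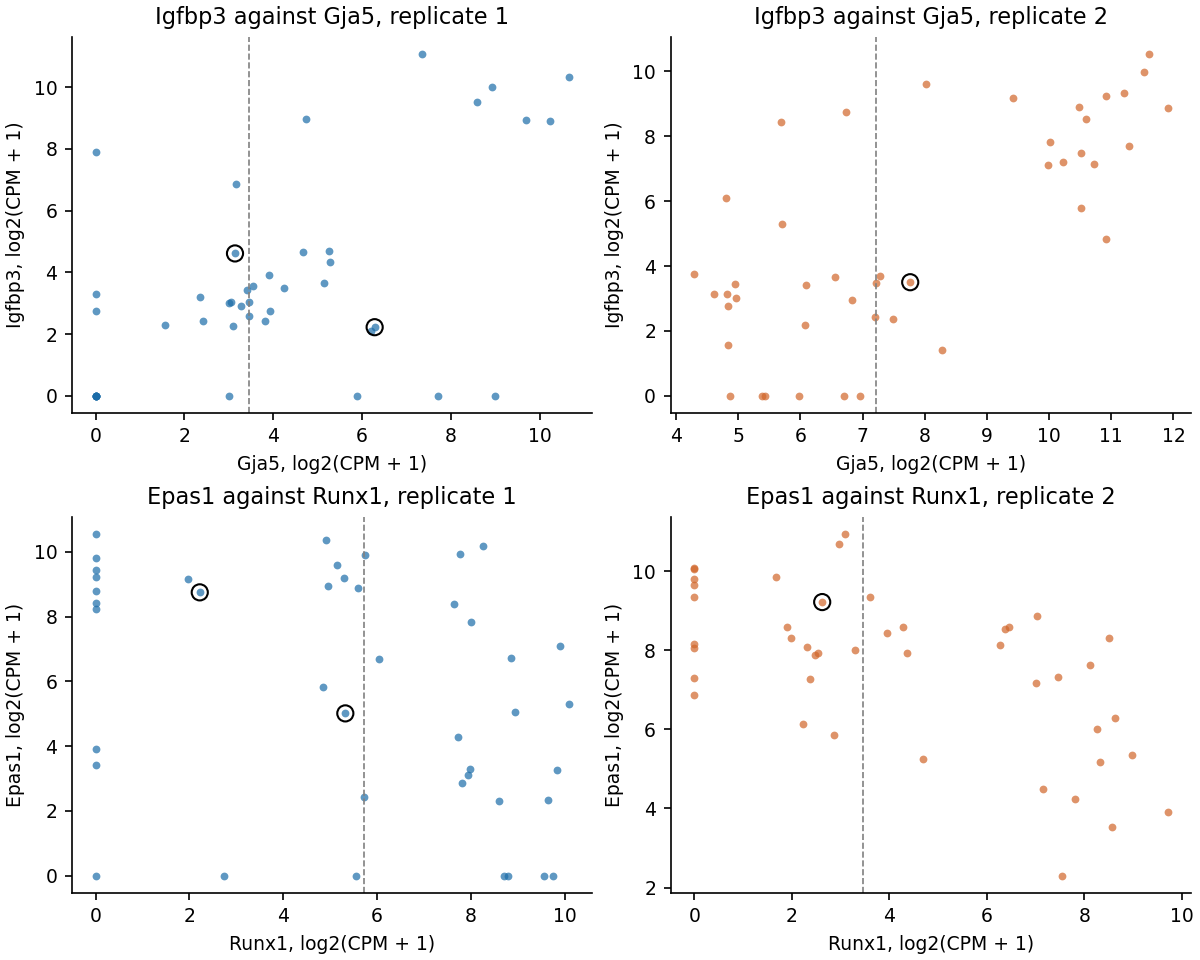
*Igfbp3* against *Gja5* (top) and *Epas1* against *Runx1* (bottom) in single cells of replicate 1 (left) and replicate 2 (right), as log2(CPM + 1) on both axes, with a dashed line at the library median of the x axis and rings around the 3 collagen-rich cells. Most cells with high *Igfbp3* lie at the right of the *Gja5* median, while *Epas1* was high in many cells at the left of the *Runx1* median and spread widely at its right.

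*Epas1* was at 347 against 116 CPM in replicate 1 and 423 against 181 CPM in replicate 2 (1.39, SE 0.30, 2.62-fold higher, edgeR adjusted p = 0.0156). Both *Gja5*-high sums lay above both *Gja5*-low sums, a pattern whose share over all genes was not counted. The rho with *Gja5* was 0.15 and 0.47. This call was lost in thinned cells (1.02, adjusted p = 0.725), without the library block (adjusted p = 1.00) and with both classes in the fit (1.04, adjusted p = 0.605). *Igfbp3* still passed with both classes in the fit (3.50, adjusted p = 0.00448) and did not without the block (3.61, adjusted p = 0.299).

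*Unc5b* was at 117 against 56.4 CPM in replicate 1 and 219 against 35.7 CPM in replicate 2 (1.82, SE 0.50, adjusted p = 0.0922), and its rho with *Gja5* was 0.39 and 0.61. It passed without the 3 collagen-rich cells (1.99, adjusted p = 0.0467), 1 of which was *Gja5*-low and held 461 CPM of it. *Bmx* was at 97.4 against 12.6 and 45.6 against 15.1 CPM (2.25, SE 0.87, adjusted p = 0.389), with 6 against 3 cells holding a count in replicate 1 and 13 against 5 in replicate 2. *Cxcl12* had 25 counts in *Gja5*-high and 0 in *Gja5*-low cells of replicate 1 and 41 against 3 in replicate 2 (adjusted p = 0.937), and the 2 cells with 10 counts held 96% of its counts in replicate 1. *Cxcr4*, which the filter left out, had 5 against 0 and 54 against 9 counts. *Runx1* itself was at 297 against 304 CPM in replicate 1 and 91.3 against 180 CPM in replicate 2 (-0.52, SE 0.33, adjusted p = 0.831).

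Beside these values, all 9 pan-endothelial markers were higher in *Gja5*-high cells (median 0.80), of which *Cdh5* passed (1.12). None of 10 hematopoietic, 4 macrophage, 3 erythroid or 3 visceral endoderm markers passed. All 8 mesenchymal markers tested were higher (median 2.70), of which *Col1a1* passed (2.81), with 1 collagen-rich cell in each class of replicate 1 and 1 in the high class of replicate 2. Without these 3 cells *Igfbp3* changed by 3.71 (adjusted p = 3.14e-07) and *Epas1* by 1.35 (adjusted p = 0.0172).

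With both splits at once, each library fell into 4 classes of 9 to 13 cells. Some cells classed as high for both genes in replicate 2 held only 1 or 2 counts of *Runx1*, with *Gja5* at 1037 to 1932 CPM. For *Igfbp3* the values rested in part on single cells. In replicate 1 it was at 215 CPM in cells high for both genes, 25.4 in cells high for *Runx1* only, 429 in cells high for *Gja5* only and 6.53 in cells low for both, and in replicate 2 these values were 287, 4.73, 351 and 98.1. The cells high for both genes held most of their *Igfbp3* counts in 1 cell, 562 of 579 in replicate 1 and 755 of 848 in replicate 2. Without the highest cell of each class the 4 values were 6.99, 7.81, 324 and 4.80 CPM in replicate 1 and 46.6, 4.49, 332 and 55.7 CPM in replicate 2. Among *Runx1*-high cells the order of the *Gja5* classes then turned in replicate 1 and held in replicate 2, while among *Runx1*-low cells it held in both. *Epas1* was highest in cells high for *Gja5* only, at 730 CPM in replicate 1, where the other 3 classes were at 92.2 to 131, and at 594 CPM in replicate 2, where they were at 136 to 294. *Unc5b* was highest there too, at 210 and 283 CPM, and lowest in cells high for *Runx1* only, at 46.6 and 23.0 CPM. *Bmx* had the same order at its ends, with 161 and 65.3 CPM against 0.652 and 3.66 CPM. Single cells weighed on these values too. In cells high for *Runx1* only, 1 cell held 127 of 143 *Unc5b* counts in replicate 1 and 83 of 107 in replicate 2. In cells low for both, 1 cell held 53 of 54 *Bmx* counts in replicate 1 and all 81 in replicate 2. Without the highest cell of each class, cells high for *Gja5* only stayed highest for *Unc5b* and *Bmx*. The lowest *Bmx* class in replicate 2 was then the one low for both, at 0 against 0.910 CPM. Whether the *Gja5* difference depends on the *Runx1* class was not tested.

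**Figure D5:**
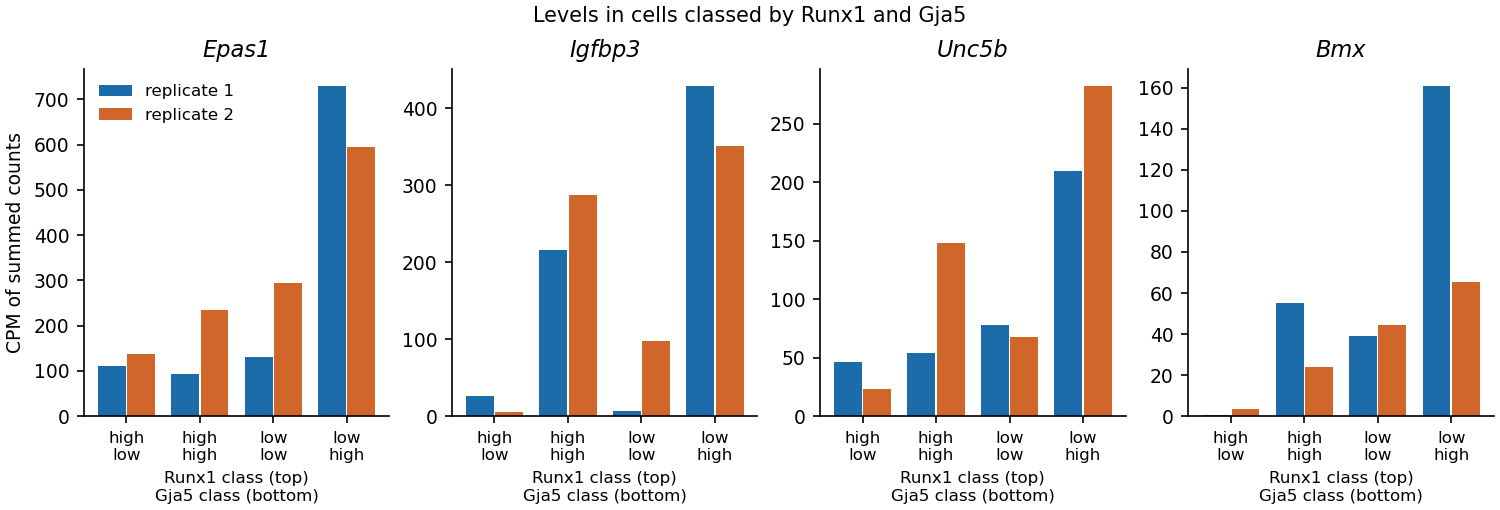
CPM of the summed counts of *Epas1*, *Igfbp3*, *Unc5b* and *Bmx* (each with its own axis from 0) in cells classed by *Runx1* (upper label) and *Gja5* (lower label), for replicate 1 (blue) and replicate 2 (orange). The cells low for *Runx1* and high for *Gja5* had the highest level of all 4 genes in both libraries.

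Over the pathways in which the members act, 1 of 44 genes tested passed with *Runx1* (2.27%, against 1.56% of all genes) and 1 of 46 with *Gja5* (2.17%, against 0.882%). Of the genes of netrin signaling and its receptors, 4 of 12 listed could be tested against *Runx1* and 5 against *Gja5*, and none passed. Of the genes of the *Cxcl12* and *Cxcr4* axis, such as G proteins, arrestins and receptor kinases, 9 were tested in each split and none passed. Among 10 genes of the insulin-like growth factor axis, only *Igf2*, the growth factor bound by *Igfbp3*, passed. It was at 2456 against 4399 CPM in *Runx1*-high and *Runx1*-low cells of replicate 1 and at 3037 against 8233 CPM in replicate 2 (-1.17, SE 0.22), and at 4407 against 1874 and 7145 against 3177 CPM in *Gja5*-high and *Gja5*-low cells (1.19, SE 0.10). None of 8 regulators of hypoxia-inducible factors and none of their targets, 11 tested against *Runx1* and 12 against *Gja5*, passed, with median changes of 0.05 and 0.01 against *Runx1* and 0.39 and 0.83 against *Gja5*. None of the 2 other Tec-family kinases tested passed.

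Genes of the Notch pathway and other arterial genes were set beside the members. Over all genes 1.56% passed with *Runx1* and 0.882% with *Gja5*. Of 13 Notch pathway genes tested, 10 were lower in *Runx1*-high cells (median -0.87) and 3 of these passed, *Dll4* (-2.71), *Jag1* (-3.08) and *Hey1* (-1.77). In *Gja5*-high cells 11 were higher (median 0.95) and 3 passed, *Notch1* (1.38), *Jag1* (3.16) and *Hey1* (2.89). Of 16 other arterial genes tested, a list that shares *Hey1*, *Hey2*, *Dll4* and *Jag1* with the Notch list, 14 were lower in *Runx1*-high cells (median -1.68). Of these 14 genes 9 passed, among them *Gja4* at -2.45 and *Nrp1* at -1.41. In *Gja5*-high cells 15 were higher (median 2.53) and 9 of these passed, among them *Gja4* at 3.19 and *Nrp1* at 1.75. Of 6 venous genes tested, 5 were lower in *Runx1*-high cells (median -1.18) and *Aplnr* passed (-2.63), and none passed with *Gja5* (median -0.43). The median over all genes was 0.07 in the *Runx1* split and -0.00 in the *Gja5* split. Differences between these lists were not tested.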

How the data were processed

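Single-cell RNA-seq of yolk sac PK44 cells was deposited as 2 tables of counts, 1 per library. Per the methods, the authors split reads by cell barcode, trimmed and aligned them to mm10 with HISAT2 2.1.0, counted uniquely mapped reads with HTSeq and kept 1 count per molecular identifier and gene, so the deposited counts are whole transcripts without normalization. Cells with few genes or transcripts, and cells with too many reads or genes to be single, were left out by the authors, and no doublet caller was run here. The barcode tables hold no measurement and served only to check for shared barcodes. Totals per library are in the report, and the intervals (Clopper-Pearson, 95%) and the limit of 3 counts for a count of 0 cover counting error only.

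CPM, ranks and correlations were computed in Python 3.11.15 (pandas 2.3.3, numpy 2.4.6, scipy 1.17.1), with thinning to 20000 counts leaving out 1 cell. Sums per library and class went into edgeR 4.0.16 under R 4.3.3 (quasi-likelihood F test after filterByExpr and TMM, Benjamini-Hochberg adjustment over all genes tested, threshold 0.05), leaving the gene that split the cells out, and DESeq2 1.42.0 was an alternative. Standard errors are the log2 change divided by the root of F. Both sums of a library were made from the same pool, which is why the library was kept as a block. Across genes, departures of these sums from their class means correlated at 0.20 over 10630 genes for *Runx1* and at 0.20 over 10654 genes for *Gja5*, genes that are not independent replicates. The methods name a Wilcoxon test over cells, which takes cells as replicates and was not used. Symbols were matched to GENCODE M21 (22124 of 23154).

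Named were the 6 members, *Runx1*, *Gja5*, the 3 genes most like each member, and up to 4 genes per list that passed. In addition, marker genes, *Gpr89*, *Hey2* and the 4 collagen-cell genes are named as context. Members and lists were chosen with earlier results of these data known. The alternatives were another tool, no filter on low counts, no block, thinned cells, the upper against the lower tertile of cells, means over cells, each library alone and no collagen-rich cells. A fit with both classes was chosen after seeing the data.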

Additional observations from a re-analysis of the deposited data

How the results depend on the processing

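The signs of the fitted changes of *Unc5b*, *Epas1*, *Igfbp3* and *Bmx* held under every alternative run for them. *Cxcr4* was compared for *Runx1* only and was not fitted in thinned cells, in tertiles or without the collagen-rich cells, and *Cxcl12* not in thinned cells. Where fitted their signs held, apart from *Cxcl12*, whose change with *Runx1* was 0.38 with both classes in 1 fit, a setting chosen after seeing the data. Calls depended more on the setting. Against 166 genes and 1 member (*Epas1*) called with *Runx1*, the fit without the replicate block called 1 gene and 0 members, DESeq2 306 genes, thinned cells 102 genes, the upper against the lower tertile 2 members, and both classes in 1 fit 47 genes and 0 members. Against 94 genes and 2 members called with *Gja5*, the fit without the replicate block called 0 genes and 0 members, DESeq2 172 genes, no low-count filter 160 genes, thinned cells 11 genes and 1 member, tertiles 168 genes, and both classes 22 genes and 1 member. At an unadjusted p under 0.05 edgeR held 922 and 823 genes with the block and 588 and 433 without it. Fewer genes were tested in thinned cells, 6773 and 7028, and the cause of the other shifts was not tested.

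Over 9 settings, adjusted p-values for *Epas1* with *Runx1* ran from 7.29e-05 to 0.673 and passed in 7, those for *Igfbp3* with *Gja5* from 9.49e-16 to 0.299 and passed in 8, those for *Epas1* with *Gja5* from 0.00103 to 1.00 and passed in 6, and those for *Unc5b* with *Gja5* from 8.53e-05 to 1.00 and passed in 3. *Igfbp3* with *Runx1* passed only between tertiles (-2.47, adjusted p = 0.0341). With 1 library left out, 1 sum faces 1 sum and no test is possible. The changes were then -2.27 and -1.49 for *Epas1* with *Runx1* and 3.88 and 3.36 for *Igfbp3* with *Gja5*. *Cxcr4* and *Cxcl12* had 68 and 69 counts in all, too few for a difference between classes to be judged. The level of *Cxcl12*, 3.13 CPM over the 2 libraries, was 7.89 as a mean over cells and 10.5 in thinned cells.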
